A study of Mus musculus with 4 samples.

Results

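Interferon-stimulated genes are the effector arm of the interferon response. Interferons bind receptors on the cell surface, the kinases JAK1 and TYK2 phosphorylate STAT2, and this factor enters the nucleus with IRF9 in a complex that binds a GAAA-rich element in front of the target genes. The products sense viral RNA, degrade or block it, or modify and feed back on the pathway, and tumour cells often express part of this set without infection. The list described here holds 42 such genes, grouped by role. Of these, 37 were represented by a probe set whose platform annotation names that gene alone, among 22180 genes measured in all. Ifi35 had a further probe set, and the one with the highest mean over the 4 arrays stood for it. Oas1a, Parp10, Dtx3l and Gbp2 were named only on probe sets shared with another gene and Ifi44 on none, so these 5 genes were not analysed here.

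The measurements came from EO771, a mouse mammary carcinoma cell line, grown for 24 hours to at least 70% confluence before treatment. The treatment was A-FABP, the fatty acid binding protein of adipocytes encoded by Fabp4. It was given as recombinant mouse protein at 100 ng/ml for 2 arrays, and the 2 controls received PBS per the series design. The titles call the arrays of each group biological replicates, but the labels do not say whether the cultures were separate, so p-values measure the spread between these arrays. The description field of the controls mentions A-FABP as well, whereas their titles and source names mark them as controls. The question is how the transcripts of the tumour cells respond to A-FABP supplied from outside. Each value below is the authors' log2 expression value (RMA) of a probe set. Values of different genes come from different probes and were not ranked against each other.

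The array medians were 5.98 and 5.95 in the A-FABP group and 6.03 on each PBS array. In all 41345 probe sets, 0 passed limma's Benjamini-Hochberg threshold (adjusted p under 0.05), and the lowest adjusted p was 0.296. Genes at an unadjusted p under 0.05 numbered 2894. Differences also followed the level of a gene, with medians of -0.15 for genes at 5 to 6 and 0.09 for genes at 7 to 8. Of the 5 measured epithelial markers, Krt8 was bright (8.79) and Cdh1 (6.29) lay above the array medians. Krt18 (6.01) lay within their range, whereas Krt14 (5.47) and Epcam (4.79) lay below the array medians. Of 8 macrophage and pan-leukocyte markers, Ptprc (4.22), Adgre1 (4.60), Itgam (5.30) and Fcgr1 (5.85) lay below them, whereas Cd68 (12.79), Cd14 (7.20), Csf1r (6.81) and Lyz2 (6.09) lay above. Of the 8, 5 lay lower with A-FABP and 3 higher. Ptprc and Itgam were at -0.45 and -0.34, at an unadjusted limma p of 0.020 and 0.014. On the lower side, 8.24% of all genes had an unadjusted p under 0.05. Ptprc, Itgam, Cd68 and Fcgr1 were lower on both A-FABP arrays, as were 27.5% of all genes. Cd14 and Csf1r, at 0.28 and 0.16, were higher on both, as were 26% of all genes, and Lyz2 lay at 0.04. Over the 8 the mean level was 6.56 and 6.54 with A-FABP, against 6.68 and 6.65 in the controls, and its part in the results below was not tested.

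The promoters of 4 of the genes show the element through which interferon signalling acts. Of the members with a RefSeq promoter window (build GRCm38.p6), Eif2ak2, Gbp3, Trim30a and Irgm1 had the lowest p, and Isg15 is shown beside them as the textbook target. Each line gives the 120 bases before the annotated start, read towards the gene, for the most upstream start where there are several, with matches on either strand to GAAA, any 2 bases and GAAA again in capitals.
Gbp3, chr3:142559924-142560043, plus strand: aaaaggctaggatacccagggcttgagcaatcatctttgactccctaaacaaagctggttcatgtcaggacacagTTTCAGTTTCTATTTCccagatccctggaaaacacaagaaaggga
Trim30a, chr7:104465194-104465313, minus strand: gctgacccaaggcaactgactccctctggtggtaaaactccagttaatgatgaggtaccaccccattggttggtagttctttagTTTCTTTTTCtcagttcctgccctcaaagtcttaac
Irgm1, chr11:48871421-48871540, minus strand: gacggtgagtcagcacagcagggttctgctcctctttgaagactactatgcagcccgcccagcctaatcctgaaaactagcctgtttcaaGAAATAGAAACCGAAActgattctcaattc
Isg15, chr4:156200819-156200938, minus strand: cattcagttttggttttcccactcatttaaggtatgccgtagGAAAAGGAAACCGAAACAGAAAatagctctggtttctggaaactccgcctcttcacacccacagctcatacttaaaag
In Gbp3 the 2 overlapping matches read towards the opposite strand and ended 29 bases before the start. In Trim30a the match ended 26 bases before it. In Irgm1 the 2 overlapping matches ended 14 bases before it, and in Isg15 the 3 overlapping matches ended 56 bases before it. The Eif2ak2 window holds its match, GAAAACGAAA, from base 19 after the start, so its bases before the start are not shown. Promoter windows were given for 31 of the 42 genes, and 18 of them (58.1%) had a match in a window of 250 bases before to 50 after a start. Of all 27025 genes with a window, 3.99% had one, and of all 32851 windows 3.44%. Some genes have several windows, and repeats of GAAA also match.

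The motif occurred in genes on both sides of the pattern described below. The 16 measured members with a match had differences from -0.01 to 0.53 and a median of 0.18, and 5 of them were at an unadjusted p under 0.05. The 11 measured members whose windows held no match ranged from -0.09 to 0.25 with a median of 0.05, and 0 of them were at that p. The 10 measured members without a window had a median of 0.10, and 2 of them, Parp9 and Parp14, were at that p, where 4.81% of all genes were on the higher side. Ddx58, Ifit1, Ifit3, Isg15 and Rsad2 had a match and differences between -0.01 and 0.00. The medians are a description without a test.

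No interferon-stimulated gene passed the adjusted threshold, and the differences were small. Across the 37 genes the median difference (A-FABP minus PBS control) was 0.10 on the log2 scale, with quartiles of 0.00 and 0.25, against a median of -0.01 over all genes. Of the 37, 28 lay above 0 (75.7%), as did 47.6% of all genes. The number above 0 was 26 after repeated quantile normalization and 34 after median centring, the lowest and highest of the 4 other scalings tried. These scalings also moved the median over all genes, to -0.02 and 0.05 in that order. None of the 37 was changed 1.5-fold, where 1.33% of all genes were. Limma's adjusted threshold was passed by 0 of them, as by 0% of all genes. Adjusted p-values ran from 0.296 to 0.999.

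Without adjustment, 7 of the 37 (18.9%) had a p under 0.05 on the higher side, where 4.81% of all genes did. On the lower side the count was 0 of 37, where 8.24% of all genes were. The 7 were Parp14, Eif2ak2, Gbp3, Parp9, Trim30a, Irgm1 and Ifitm2. The count depends on having all 4 arrays. It was 2 without A-FABP replicate 1, 1 without A-FABP replicate 2, and 2 without either control, with 3.18%, 2.14%, 2.17% and 1.63% of all genes in the same order of arrays. The A-FABP arrays were both above the controls in 17 members (45.9%, against 26% of all genes) and below them in 2 (5.41%, against 27.5%). In the other 18 members (48.6%, against 46.5% of all genes) the groups overlapped. The share of all genes on the higher side differed with the level and with the settings of the test. It was 10.7% for genes at levels 7 to 8, which held 2 of the 7. Among genes above the median level it was 11.5%, against 6 of 31 members, and with the trend and robust options of eBayes it was 8.52%, against 8 of 37.

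**Figure D1:**
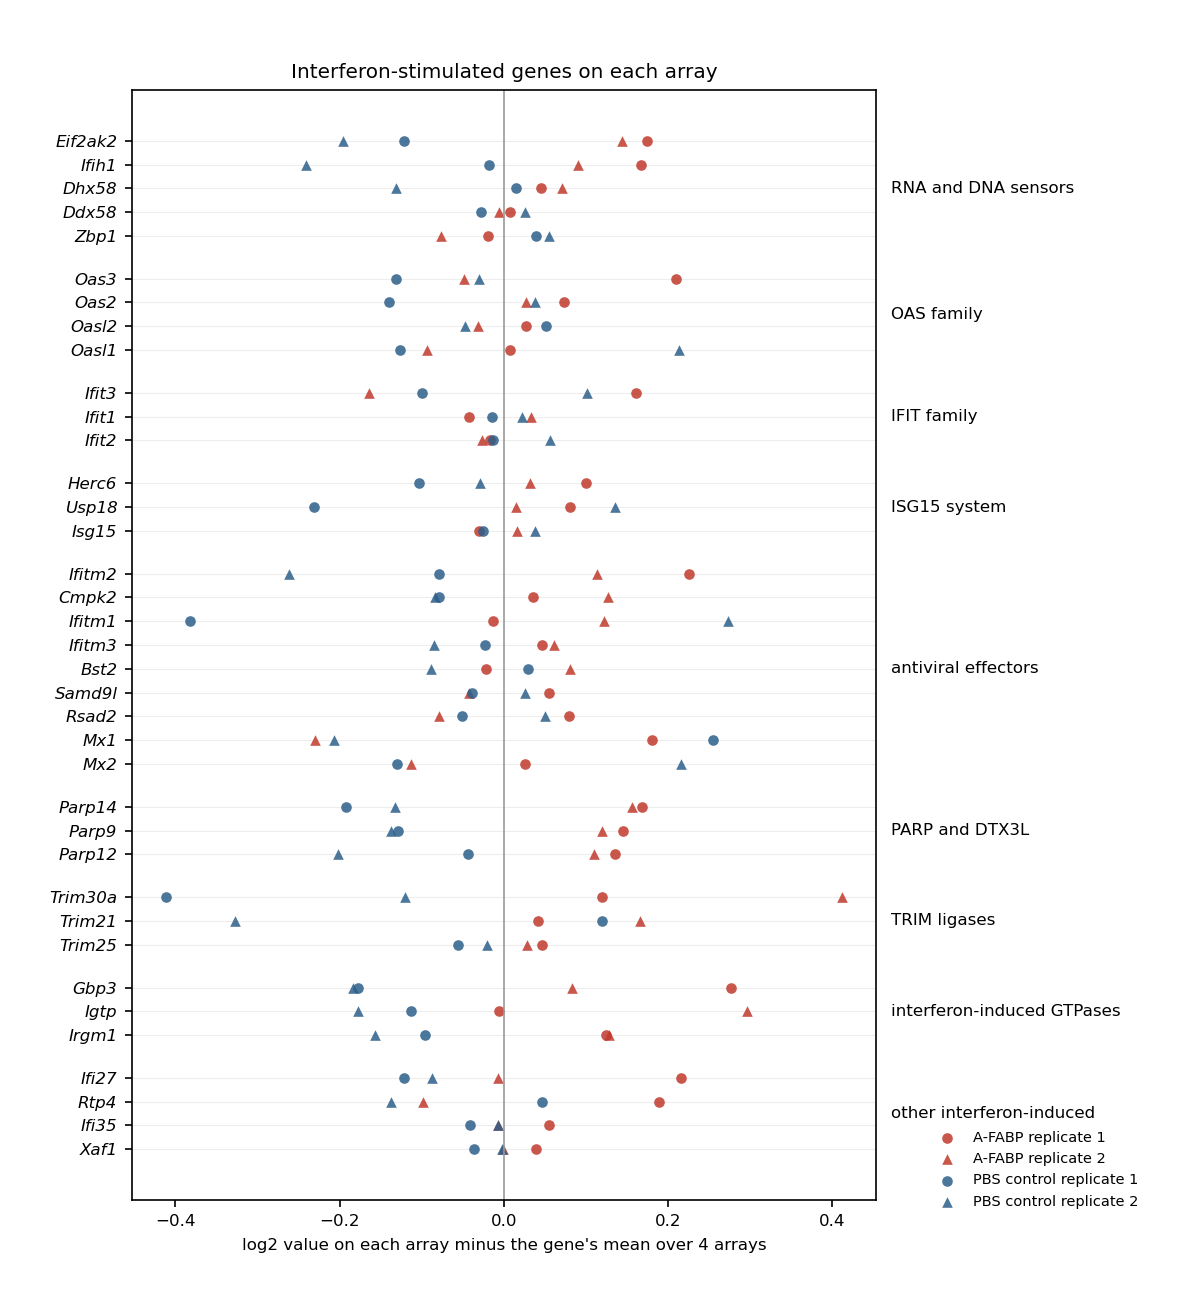
Log2 value of each interferon-stimulated gene on each array minus its mean over the 4 arrays (horizontal axis), with genes in rows by role; red marks A-FABP arrays, blue PBS arrays, circles replicate 1 and triangles replicate 2. Red lies to the right of blue in all 3 measured PARP genes and all 3 GTPases, while the colours are mixed in Ddx58, Isg15, Ifit1 and Ifit3.

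Over all genes the median difference was -0.07 below level 5, -0.15 at 5 to 6 and -0.10 at 6 to 7. At the levels above 7 it was 0.01 to 0.09. The part of level in the count of members at an unadjusted p under 0.05 was not tested. Of the 37 members, 31 (83.8%) had a mean above the median of all probe sets, as did 56.6% of all genes. Between levels 7 and 8, the 10 members had a median of 0.14 against 0.09 for all genes, and between 5 and 6 the 5 members had 0.11 against -0.15. Between 8 and 9 the 4 members lay at 0.09, against 0.09. With the trend on level removed, the median of the 37 was 0.08 and 6 members were at an unadjusted p under 0.05 on the higher side, against 4.36% of all genes. After median centring the median was 0.17, against 0.05 for all genes. That scaling turned the balance over all genes from 4.81% higher and 8.24% lower to 8.17% higher and 4.72% lower, and counted 9 members higher and 0 lower.

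**Figure D2:**
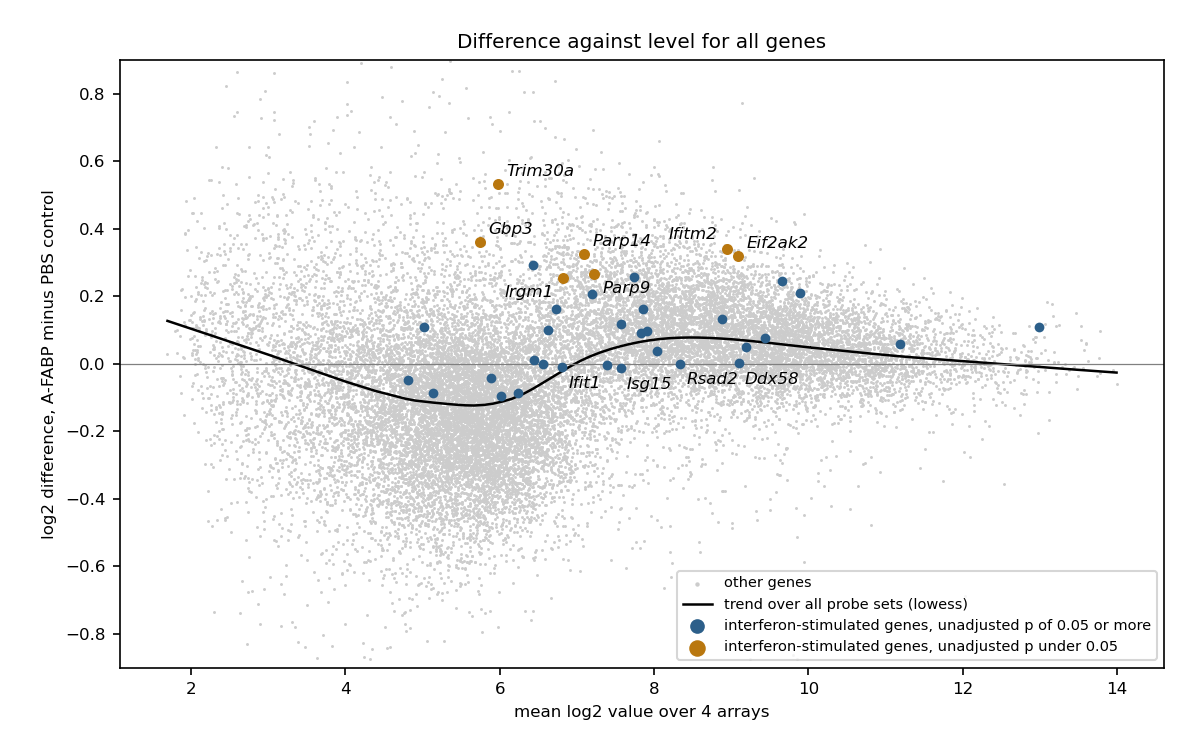
Log2 difference (A-FABP minus PBS control) against the mean log2 value over 4 arrays for all genes (grey), with interferon-stimulated genes in blue or, at an unadjusted p under 0.05, in orange; the black line is the trend over all probe sets, and 35 genes beyond 0.9 in either direction are outside the axis. The 7 orange genes lie between 0.25 and 0.53, above the line, whereas Isg15, Ddx58 and Rsad2 lie below it.

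Among the sensors, Eif2ak2, which encodes the RNA-dependent kinase PKR that halts translation, had the lowest p. It was at 9.26 and 9.23 with A-FABP, against 8.97 and 8.89 in the controls. Both A-FABP arrays were above both controls, by 0.32 ± 0.08 (SE; 1.25-fold, 95% CI 0.09 to 0.55, limma adjusted p = 0.296). Ifih1, the long double-stranded RNA sensor MDA5, was at 7.91 and 7.83 against 7.73 and 7.50, a difference of 0.26 ± 0.11 whose interval included 0 (-0.06 to 0.58). It was 0.15 without PBS control replicate 2. Ddx58, the RNA sensor RIG-I, was at 9.11 and 9.09 against 9.07 and 9.12. Its groups overlapped, and the difference of 0.00 had a 95% CI of -0.22 to 0.22. Dhx58, the regulator LGP2, lay at 0.12 (-0.14 to 0.38; 0.04 without PBS control replicate 2), and Zbp1, a sensor of Z-form nucleic acid, at -0.09 (-0.32 to 0.13), where both A-FABP arrays were just below the controls.

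The oligoadenylate synthetases, which activate RNase L against viral RNA, showed overlapping groups in each of the 4 measured members. Groups overlapped in 46.5% of all genes. Oas3, with the lowest p among them, was at 8.07 and 7.81 with A-FABP, against 7.73 and 7.83 in the controls, so only the first A-FABP array stood above the rest. Its difference was 0.16 ± 0.13 (95% CI -0.19 to 0.51), and 0.03 without A-FABP replicate 1. Oas2 lay at 0.10 and the OAS-like genes Oasl1 and Oasl2 at -0.09 and 0.00. On a separate list, Oas1g (0.50) and Oas1b (0.56) of the same family were higher on both A-FABP arrays, as were 26% of all genes.

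Genes of the IFIT family and the ISG15 system, among those usually taken as the readout of type I interferon, had intervals that included 0. The IFIT proteins bind viral RNA that lacks the host cap, and Ifit1 was at 6.77 and 6.84 with A-FABP, against 6.80 and 6.83 in the controls. The groups were interleaved, with a difference of -0.01 (95% CI -0.24 to 0.22). Ifit3 was at 6.72 and 6.39 against 6.46 and 6.66, and Ifit2 at 5.87 and 5.86 against 5.87 and 5.94. The difference of Ifit3 was 0.00 (-0.44 to 0.44). That of Ifit2 was -0.04 (-0.27 to 0.18), and both its A-FABP arrays were just below the controls. Isg15, a ubiquitin-like modifier, was at 7.54 and 7.59 with A-FABP, against 7.54 and 7.61 in the controls. Its arrays fell in the same narrow span in both groups, and its interval of -0.24 to 0.21 does not reach a fold of 1.5 either way. Usp18, the protease that removes ISG15 and inhibits the receptor, lay at 0.10 (-0.33 to 0.53), and its first control array (7.68) was below the other 3 (7.92 to 8.04). Herc6, an ISG15 ligase in the mouse, was at 8.98 and 8.91 against 8.77 and 8.85, higher on both A-FABP arrays by 0.13 ± 0.08 (-0.10 to 0.37).

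The direct antiviral effectors were mixed. Ifitm2, a membrane protein that blocks the fusion of virus with endosomes, was at 9.17 and 9.06 with A-FABP, against 8.87 and 8.68 in the controls, higher on both A-FABP arrays by 0.34 ± 0.11 (1.27-fold, 95% CI 0.04 to 0.64). Its neighbour Ifitm3 was bright, at 13.04 and 13.06 against 12.97 and 12.91, a difference of 0.11 (-0.11 to 0.33). RMA can narrow differences at the brightest values, and whether it did so for Ifitm3 was not tested. Ifitm1 lay at 0.11 too, but its control arrays were 4.64 and 5.29 and enclosed both A-FABP arrays. Signal shared between these close relatives was not tested. Rsad2, which encodes viperin, and Cmpk2, a mitochondrial nucleotide kinase, are neighbours in the genome. Rsad2 was at 0.00 (-0.28 to 0.28) with overlapping groups, and Cmpk2 at 0.16 (-0.07 to 0.39) with both A-FABP arrays higher. The dynamin-like Mx1 and Mx2 were dim (4.81 and 5.14) and had overlapping groups, at -0.05 and -0.09. Bst2, which encodes the virus-tethering protein tetherin, was bright on all arrays (11.09 to 11.27) and lay at 0.06, and Samd9l, a growth and translation inhibitor, at 0.01.

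The ADP-ribosyltransferase genes were higher on both A-FABP arrays in all 3 measured members, as were 26% of all genes. Parp14 was at 7.27 and 7.25 with A-FABP, against 6.91 and 6.97 in the controls, and the gap between the groups was several times the gap within them. The difference was 0.32 ± 0.08 (1.25-fold, 95% CI 0.10 to 0.55, limma adjusted p = 0.296), the lowest unadjusted p among the 37 (0.0155). Parp9 was at 7.37 and 7.34 against 7.10 and 7.09, a difference of 0.27 ± 0.08 (0.05 to 0.48). It works as a complex with the ubiquitin ligase DTX3L, and Parp14, Dtx3l and Parp9 lie next to one another on chromosome 16. Parp12, an RNA-binding member, was at 9.79 and 9.77 against 9.61 and 9.46, a difference of 0.25 (-0.02 to 0.51).

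Trim30a had the highest difference of the 37. It encodes a mouse TRIM protein that restrains inflammatory signalling, and was at 6.09 and 6.39 with A-FABP, against 5.56 and 5.85 in the controls. The groups did not overlap, although the arrays of each group were well apart, and the difference of 0.53 ± 0.17 (1.45-fold) had an interval of 0.07 to 0.997. It was 0.39 without A-FABP replicate 2 and 0.68 without A-FABP replicate 1. Trim25, the ligase that activates RIG-I, was at 9.49 and 9.47 against 9.39 and 9.42, higher on both A-FABP arrays by 0.08 (-0.14 to 0.29). Trim21, a cytosolic antibody receptor, lay at 0.21 (-0.30 to 0.72), with 1 low control array (6.87), and at -0.02 without that control.

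The interferon-induced GTPases attack vacuoles holding microbes and respond strongly to interferon gamma. All 3 measured members were higher on both A-FABP arrays, as were 26% of all genes. Gbp3, a guanylate-binding protein, was at 6.03 and 5.83 with A-FABP and 5.57 on both control arrays. The controls were nearly identical and the difference was 0.36 ± 0.10 (1.28-fold, 95% CI 0.07 to 0.65). Irgm1, a regulatory GTPase of autophagy, was at 6.94 on both A-FABP arrays and at 6.72 and 6.66 with PBS, a difference of 0.25 ± 0.08 (1.19-fold, 0.03 to 0.47). Igtp, also called Irgm3, was at 6.42 and 6.72 against 6.31 and 6.25, and its 0.29 ± 0.13 had an interval that included 0 (-0.08 to 0.67). It was 0.14 without A-FABP replicate 2 and 0.44 without A-FABP replicate 1. Of 6 further measured GTPases of these families on a separate list, Gbp5 (-0.20) and Gbp6 (-0.45) were lower on both A-FABP arrays and Gbp7 (0.24) was higher on both. Gbp4 (0.13), Irgm2 (0.15) and Iigp1 (-0.04) had overlapping groups, and the intervals of all 6 included 0.

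Of the remaining members, Ifi27, a mitochondrial protein gene, was at 10.10 and 9.88 with A-FABP, against 9.77 and 9.80 in the controls. The first A-FABP array stood apart from the other 3, and the difference was 0.21 ± 0.11 (-0.10 to 0.52), and 0.10 without that array. Rtp4, a chaperone that dampens interferon responses, lay at 0.09, Ifi35 at 0.05 and the pro-apoptotic Xaf1 at 0.04. The further probe set of Ifi35 lay at -0.06.

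**Figure D3:**
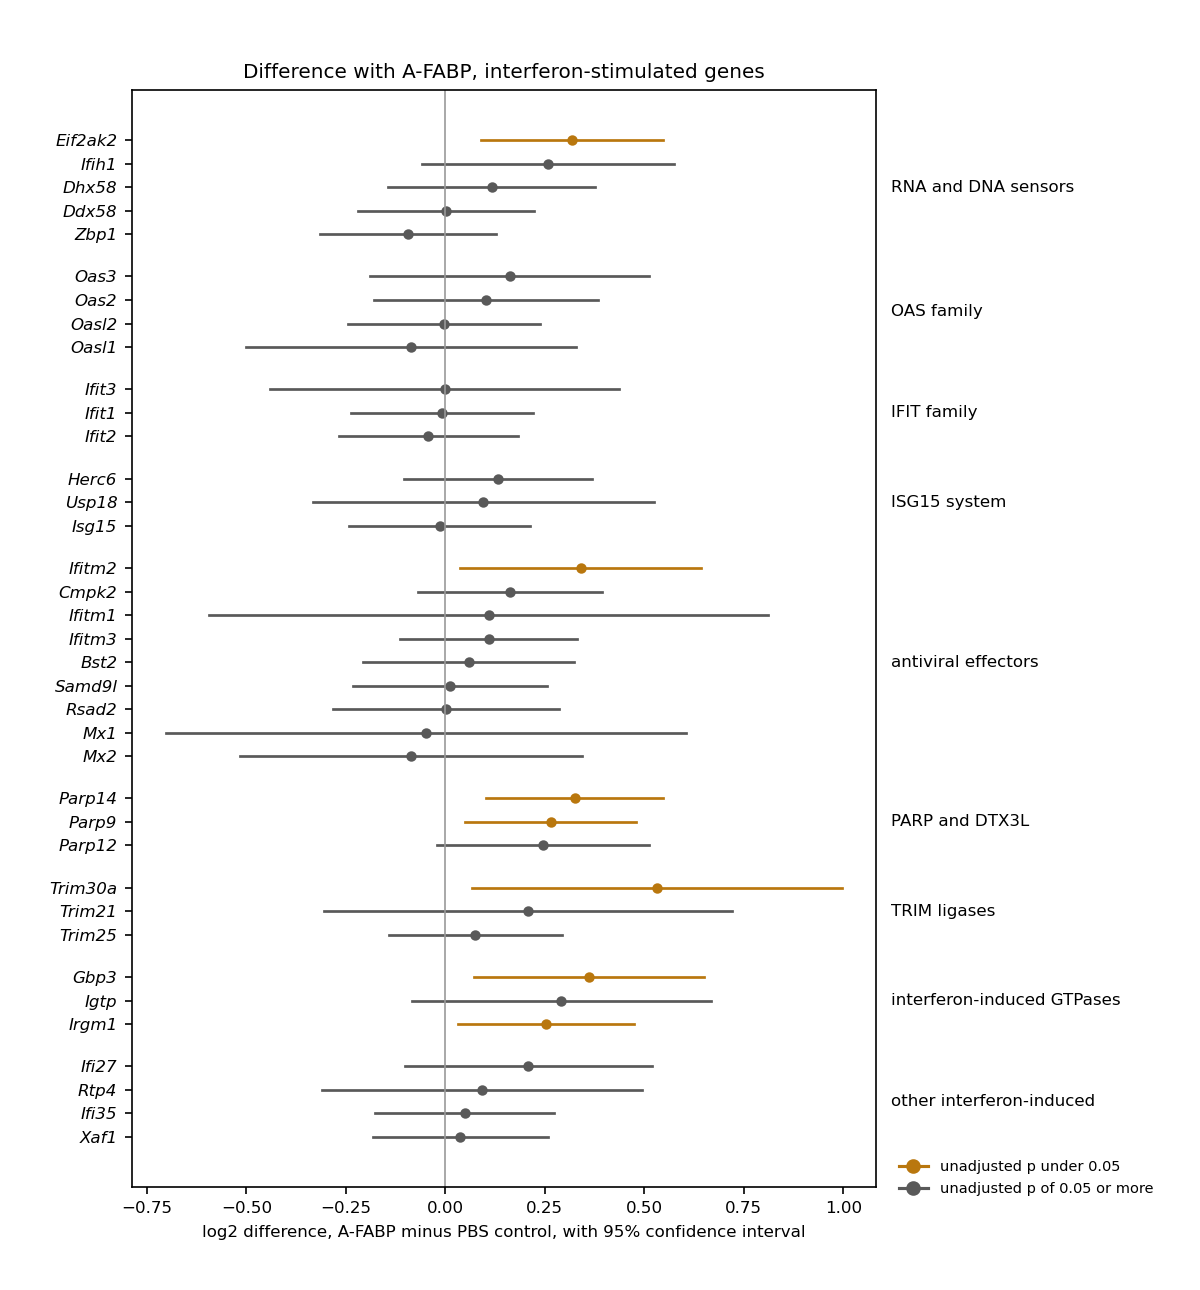
Log2 difference (A-FABP minus PBS control) of each interferon-stimulated gene with its 95% confidence interval from limma, by role; orange marks an unadjusted p under 0.05. The intervals of Parp14, Eif2ak2, Gbp3, Parp9, Trim30a, Irgm1 and Ifitm2 lie above 0, and the remaining intervals include 0.

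Some members lie close together in the RefSeq gene order, with at most 2 other protein-coding genes between them. Parp9 and Parp14 were at 0.27 and 0.32, Oas2 and Oas3 at 0.10 and 0.16, Oasl1 and Oasl2 at -0.09 and 0.00, Ifit2 and Ifit3 at -0.04 and 0.00, and Rsad2 and Cmpk2 at 0.00 and 0.16. The Ifitm genes ranged from 0.11 to 0.34. Whether neighbours were more alike than other members was not tested.

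The genes that carry the interferon signal, listed separately from the 42, had a median difference of 0.02 over the 36 measured of 40, with 2 at an unadjusted p under 0.05 on each side (against 4.81% of all genes higher and 8.24% lower). The ligand gene Ifnb1 was dim, at 4.01 and 4.04 with A-FABP, against 3.72 and 3.79 in the controls. The difference was 0.27 ± 0.08 (0.04 to 0.50) with both A-FABP arrays higher, but detection was not called and the level lay below the array medians. Ifna4, another type I ligand, was at 7.45 on both A-FABP arrays and at 7.86 and 7.96 with PBS, lower by 0.46 (limma difference -0.46 ± 0.08, -0.69 to -0.22). Of 9 measured ligand genes 7 lay below 0, and interferon alpha genes have close copies whose shared signal was not tested.

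The receptor genes Ifnar1 and Ifnar2 lay at 0.08 (95% CI -0.17 to 0.33) and 0.01 (-0.21 to 0.23), with overlapping groups. The kinase genes Jak1 and Tyk2 lay at -0.02 (-0.24 to 0.19) and 0.19 (-0.06 to 0.43). Stat2 lay at 0.16 (-0.12 to 0.44; 0.07 without PBS control replicate 1) and Irf9 at 0.08 (-0.14 to 0.31). Irf7, an interferon-induced factor that amplifies the response, was at 8.36 and 8.28 with A-FABP, against 8.07 and 8.13 in the controls, a difference of 0.22 ± 0.08 (-0.02 to 0.45). Irf1, which drives many targets of interferon gamma and of NF-kB, went the other way. It was at 7.37 and 7.52 against 7.92 and 8.07, with the A-FABP arrays below the controls, by -0.55 ± 0.11. Tlr3, the endosomal RNA receptor, was at 6.31 and 6.05 against 5.85 and 5.83, higher by 0.34 ± 0.12 (0.00 to 0.68). Its difference was 0.21 without A-FABP replicate 1. The feedback inhibitor Socs1 was at 7.21 and 7.19 against 7.21 and 7.21, a difference of -0.01 (-0.22 to 0.20). Limma's adjusted p was between 0.296 and 0.961 for the genes named here.

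**Figure D4:**
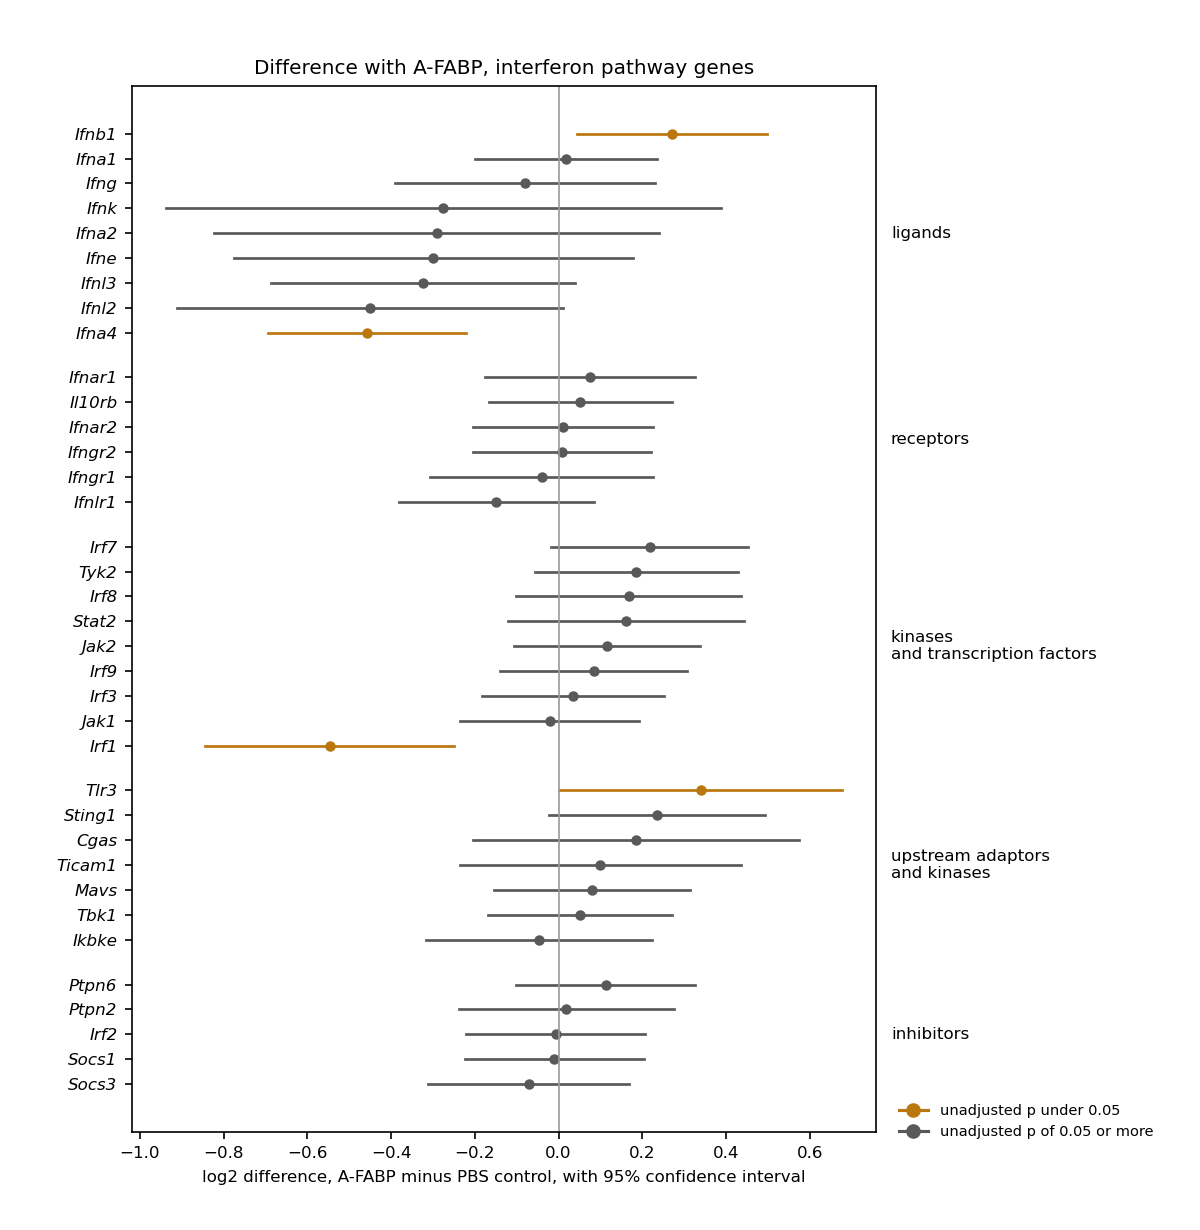
Log2 difference (A-FABP minus PBS control) with its 95% confidence interval for 36 genes of the interferon pathway, by role; orange marks an unadjusted p under 0.05. Irf1 and Ifna4 lie below 0 and Ifnb1 and Tlr3 above it, and the receptor intervals all include 0.

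A second list of 33 other interferon-induced genes had a median of 0.03, with 4 at an unadjusted p under 0.05 on the higher side and 1 on the lower, where all genes gave 4.81% and 8.24%. Oas1g, an oligoadenylate synthetase gene that shares a probe set with Oas1a in addition to its own, was at 6.61 and 6.65 with A-FABP, against 6.12 and 6.13 in the controls. Its groups were far apart for their spread, with a difference of 0.50 ± 0.08 (95% CI 0.28 to 0.72, limma adjusted p = 0.296). Its relative Oas1b lay at 0.56 ± 0.18 and the DNA-sensing family member Ifi204 at 0.50 ± 0.15. Sp100, a nuclear body gene, lay at 0.24 ± 0.08, and its other probe sets at 0.09, 0.69 and -0.45. Helz2, a helicase gene, lay at 0.37 ± 0.13, and was 0.22 without A-FABP replicate 2. Ddx60, another helicase gene, was dim and lay at -0.25 ± 0.08. These genes were taken as the 6 of lowest p in that list, so their differences are a description.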

How the data were processed

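RNA of 4 samples was hybridised to single-colour arrays. The authors deposited log2 expression values, 1 for each probe set on each array, made with RMA and Partek 6.6 per the submitters' processing notes. The probe design is not described in the labels, and the genome build was not stated in the sources used here. Per the labels, biotin-labelled cRNA came from total RNA. RMA narrows differences near background and at the brightest values, and detection was not called. Precision is limited by the number of arrays, 2 per group.

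The platform annotation named 1 gene for 23521 of 41345 probe sets, several for 1814 (used for none) and none for 16010. The probe set with the highest mean stood for each of 22180 genes. Groups came from the titles. Differences were fitted with limma 3.58.1 (R 4.3.3; lmFit and eBayes, every probe set, two-sided) with Benjamini-Hochberg adjustment at 0.05, with 2 residual degrees of freedom and a prior of 1.91. SE and 95% intervals come from this fit, which was tested on simulated data. An exact permutation test of 2 against 2 arrays cannot give a two-sided p below 0.33. List counts and medians are descriptions without a test.

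Members and lists were chosen with earlier results of these data known. Values on every array are given for members at an unadjusted p under 0.05 and, in each role group, for the brightest and that of lowest p; of the pathway list 10 fixed genes and up to 8 others at that p; of the other interferon-induced genes the 6 of lowest p. Symbols were matched through RefSeq where the annotation uses a newer one. Alternatives were other normalizations, removal of the trend on level (lowess, span 0.2), a filter on level, eBayes settings, the mean of a gene's probe sets, a replicate block, each array left out, and a looser promoter motif.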

Additional observations from a re-analysis of the deposited data

How the results depend on the processing

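No probe set and no member passed the adjusted threshold in limma under any of the 12 alternatives; in the fit as reported 2894 genes had an unadjusted p under 0.05. The 7 members at that p on the higher side became 5 to 9 under the alternatives that kept all arrays, and 1 to 2 with an array left out. The median of the members, 0.10, was 0.17 after median centring, 0.07 after cyclic loess, 0.05 after repeated quantile normalization and 0.08 with the trend on level removed, and 0.08 to 0.12 with an array left out. The median of the pathway genes, 0.02, was 0.08 after median centring and 0.04 above the median level, and turned to -0.03 after cyclic loess, repeated quantile normalization and trend removal (0.01 to 0.04 with an array left out). Members with both A-FABP arrays below both controls numbered 1 after median centring and 1 above the median level. With an array left out, where fewer arrays must be ordered, they numbered 4 to 8. Members with both above numbered 22, 15 and, with an array left out, 20 to 25. In the fit as reported 17 members were above and 2 below, against 26% and 27.5% of all genes. The looser motif was found in 67.7% of members with a window. Replicate numbers were not treated as pairs: the deviations of same-numbered arrays correlated at -0.01 over all probe sets and at 0.15 over the members. With a replicate block 5 members were at an unadjusted p under 0.05 on the higher side, where 3.26% of all genes were. No call changed.

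Signs turned for some members, most of them near 0, and for Jak1, Socs1 and Ifnar2 of the pathway list. After median centring Oasl2 was at 0.06, Ifit1 0.06, Ifit2 0.02, Ifit3 0.06, Isg15 0.05, Mx1 0.02, Jak1 0.04 and Socs1 0.05. After cyclic loess Ddx58 was at -0.06, Ifit1 0.01, Ifit2 0.06, Ifit3 0.04, Mx1 0.06, Mx2 0.03, Rsad2 -0.06, Ifi35 -0.02, Xaf1 -0.02 and Ifnar2 -0.05. After repeated quantile normalization Ddx58 was at -0.07, Ifit2 0.03, Ifit3 0.02, Rsad2 -0.07, Ifi35 -0.02, Xaf1 -0.03 and Ifnar2 -0.04. With the trend removed Ddx58 was at -0.07, Zbp1 0.02, Oasl1 0.01, Ifit1 0.01, Ifit2 0.08, Ifit3 0.06, Mx1 0.06, Mx2 0.03, Rsad2 -0.08, Ifi35 -0.02, Xaf1 -0.03 and Ifnar2 -0.05. The mean of its probe sets put Ifi35 at -0.01. With an array left out the ranges that crossed 0 were -0.03 to 0.03 for Ddx58, -0.26 to 0.08 for Oasl1, -0.05 to 0.05 for Oasl2, -0.05 to 0.03 for Ifit1, -0.16 to 0.16 for Ifit3, -0.05 to 0.02 for Isg15, -0.09 to 0.28 for Usp18, -0.28 to 0.18 for Mx1, -0.26 to 0.09 for Mx2, -0.08 to 0.08 for Rsad2, 0.00 to 0.12 for Bst2, -0.04 to 0.06 for Samd9l, -0.22 to 0.44 for Ifitm1, -0.02 to 0.43 for Trim21, -0.05 to 0.23 for Rtp4 and 0.00 to 0.03 for Ifnar2. The cause was not tested. The 7 members at an unadjusted p under 0.05 stayed above 0 under every alternative that could give them a value. Most of these alternatives could not have turned a sign. The 7 had groups that did not overlap, so leaving out an array could not do so. The eBayes settings, the filter on level, the mean of a gene's probe sets and the replicate block left their differences unchanged. Only the other scalings, trend removal included, could have turned a sign.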
